A study of Mus musculus with 12 samples.

Results

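The 43 genes described here encode the machinery that copies DNA in S phase. They were chosen by name, and all 43 were found by symbol among the 27998 genes of the P7 single-cell matrices and by Entrez ID among the 40814 genes of the neurosphere count table. They fall into 8 roles: 10 license replication origins, 6 activate the replicative helicase, 6 form the sliding clamp and its loader, 3 bind single-stranded DNA, 8 are polymerase or primase subunits, 2 join Okazaki fragments, 4 supply nucleotides and 4 copy chromatin. The study asked how loss of *Larp7*, which encodes a protein that binds and stabilizes 7SK RNA, a small RNA that holds the transcription elongation factor P-TEFb inactive, affects neural stem and progenitor cells of the developing mouse dentate gyrus. RNA of single cells was measured in P7 dentate gyrus, and bulk RNA in neurospheres, which are floating cultures of neural stem and progenitor cells, 2 days after they were replated for differentiation.

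The tissue groups were P7_WT (wild-type), P7_L7_Nestin (floxed *Larp7* with nestin-Cre) and P7_L7_Emx1 (floxed *Larp7* with Emx1-Cre), each of 1 library made from pooled gyri of littermates at postnatal day 7. nestin-Cre acts in neural stem and progenitor cells throughout the nervous system and Emx1-Cre in progenitors of the dorsal telencephalon, so that microglia, which come from outside the neural lineage, are not their intended target. For both mutant libraries the sample title and the genotype entry name opposite Cre lines. Titles were followed here. The cell numbers in the study's methods go with the titles: each lies just under the barcodes of the library so titled, and the number for nestin-Cre exceeds all barcodes of P7_L7_Emx1. The RNA values below do not tell the Cre lines apart. Both mutant libraries were compared with the same P7_WT library. All controls are labelled wild-type, while the study's text says that its wild-type controls were *Larp7*-floxed mice. The culture groups were wild-type neurospheres (2 libraries) and *Larp7* f/f;Emx1-Cre knockout neurospheres (3 libraries), all from P1 dentate gyrus and grown with bFGF. The study gives its n for these cultures in mice, but defines n as either experiments or mice, and the labels tie no library to an animal, so p-values are read as measuring the spread between these libraries.

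P7_WT held 28918491 UMIs over 12876 barcodes, P7_L7_Nestin 26689878 over 7177 and P7_L7_Emx1 28537738 over 6821. Cells that passed the filter numbered 10997, 6685 and 6531 in that order, with medians of 1782, 3644 and 3873 UMIs, so P7_WT cells were the shallowest. The neurosphere libraries held 60841963 and 61187612 counts in WT and 59821311, 60335267 and 62474602 in the knockout. With 1 tissue library per genotype no test was possible, and the 95% intervals given (exact Poisson for a level, exact conditional binomial for a ratio) cover counting error only. Wherever 3 tissue values stand in a row, their order is P7_WT, P7_L7_Nestin and P7_L7_Emx1.

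*Larp7* itself was lower in the mutant libraries in nIPC-like and RGL-like cells and in the cultures. In neuronal intermediate progenitor (nIPC)-like cells it stood at 93.2 (83.8 to 103), 14.01 (10.7 to 17.99) and 15.1 (12.0 to 18.8) CPM, and in radial glia-like (RGL-like) cells at 44.4 (37.1 to 52.7), 11.3 (8.24 to 15.2) and 10.3 (7.57 to 13.6) CPM. In microglia-like cells the values were 63.9 (51.9 to 77.8), 36.0 (27.3 to 46.5) and 37.8 (26.4 to 52.3) CPM, and the part of free RNA in them was not tested. In endothelial-like cells, also outside the neural lineage, they were 56.9 (40.0 to 78.4), 57.3 (28.6 to 103) and 38.6 (26.7 to 53.9) CPM; these cells came mostly from cluster 8 in P7_WT (401 of 402) and from cluster 24 in P7_L7_Emx1 (116 of 161). The gap was wide in nIPC-like and RGL-like cells, was smaller in microglia-like cells and lay within overlapping intervals in endothelial-like cells. In neurospheres *Larp7* stood at 42.8 and 34.97 CPM in WT and at 4.16, 6.35 and 4.39 CPM in the knockout, with no overlap. It fell by 2.97 on the log2 scale (SE 0.21, adjusted p = 0.0198, edgeR). Without knockout replicate 1 its log2 fold change was -2.85 with an adjusted p of 0.148 and without knockout replicate 3 -2.88 with an adjusted p of 0.195 (edgeR), so the difference was about as large but no longer passed. Counts were taken per gene and not per exon. These levels thus sort mutant from wild-type libraries but do not read the deletion of the floxed exon itself.

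Replication starts at origins, where the origin recognition complex, CDC6 and CDT1 load the ring-shaped MCM helicase before S phase. Kinases then recruit CDC45 and the GINS complex to start the helicase, and primase, polymerases, the PCNA clamp and its loader follow the fork while nucleotide synthesis keeps pace. In the postnatal dentate gyrus, RGLs divide rarely, nIPCs divide repeatedly, and neuroblasts are leaving the cell cycle. Transcripts of many replication genes peak around the entry into S phase and serve as its markers.

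Cells were grouped into 25 clusters without the 43 members or the genes of the cell cycle lists among the genes used, and classes were named from marker lists. Clusters 1 and 12 were nIPC-like, with 6 and 5 of 9 markers raised. Of the 10 genes that led cluster 1, Neurod4 and Eomes were markers of the class, while Hist1h3c, Kif2c, Fbxo5, Kifc1 and Arhgap11a are known from dividing cells. Of the 10 that led cluster 12, Neurog2 was such a marker, beside the cell cycle genes Exo1 and Mybl2 and the member Cdc6, although Cdc6 was not used to draw it. Genes of dividing cells thus outnumbered class markers among the leading genes of both clusters. Clusters 16 and 20 were RGL-like, with 11 and 8 of 12 markers raised, and clusters 2, 13, 14 and 15 were neuroblast-like. Clusters 7 and 10 were microglia-like, with 10 and 11 of 11 markers raised. Different clusters held most cells of some classes: nIPC-like cells came mostly from cluster 12 in P7_WT (510 of 979) and from cluster 1 in P7_L7_Nestin (539 of 893) and P7_L7_Emx1 (635 of 1064). Microglia-like cells came mostly from cluster 7 in P7_WT (390 of 644) and from cluster 10 in the mutant libraries (345 of 450 and 211 of 243). Of the neuroblast-like clusters, cluster 14 was the largest in P7_WT (900 of 2010) and cluster 13 in the mutant libraries (1273 of 2854 and 965 of 2450). Cluster 3, led by Egfr and Olig2, and the shallow cluster 0 were not named; with the small cluster 11 they held 35.3% of P7_WT, 5.01% of P7_L7_Nestin and 5.56% of P7_L7_Emx1 cells.

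Of 6 classes compared here, nIPC-like cells held the most UMIs of the members together, at 39.2 (38.6 to 39.8), 35.4 (34.9 to 36.0) and 38.0 (37.4 to 38.5) per 10000. Outside these 6, the few GABAergic interneuron-like cells (19, 35 and 46 cells) held 35.1 (31.3 to 39.3), 40.6 (37.6 to 43.7) and 41.4 (38.7 to 44.3) per 10000, above nIPC-like cells in both mutant libraries, and 16 erythrocyte-like cells of P7_L7_Nestin held 50.2. Cluster 3 held 18.6 (17.99 to 19.2), 22.5 (21.7 to 23.3) and 21.2 (20.4 to 21.9). Microglia-like cells, glia from outside the neural lineage, held 17.9 (17.3 to 18.6), 16.2 (15.6 to 16.9) and 17.1 (16.2 to 17.9) per 10000. RGL-like cells held 13.9 (13.5 to 14.3), 13.6 (13.2 to 13.98) and 16.6 (16.3 to 17.0), and OPC-like cells, which resemble precursors of oligodendrocytes, 12.4 (11.6 to 13.3), 13.6 (12.9 to 14.3) and 16.4 (15.7 to 17.2). Lowest of the 6 were neuroblast-like cells at 10.4 (10.2 to 10.7), 7.87 (7.70 to 8.05) and 9.08 (8.89 to 9.28) and astrocyte-like cells at 7.43 (7.11 to 7.76), 9.06 (8.68 to 9.45) and 8.27 (7.95 to 8.59). RGL-like cells, which resemble the stem cells of this tissue, thus held less than the progenitors in each library, and were below microglia-like cells in P7_WT and P7_L7_Nestin with overlapping intervals in P7_L7_Emx1. Neuroblast-like cells exceeded astrocyte-like cells in P7_WT and P7_L7_Emx1, and the order was the other way in P7_L7_Nestin. There 182 astrocyte-like cells came from the shallow cluster 4, whose higher level is given below, and 441 from cluster 5. In P7_WT the unnamed shallow cluster 0 held 17.9 per 10000, and Cajal-Retzius-like cells, which no longer divide, 15.9 at a median of only 965 UMIs against 8.22 and 9.50 in the deeper mutant cells. The part of free RNA in P7_WT values of that size was not tested.

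**Figure D1:**
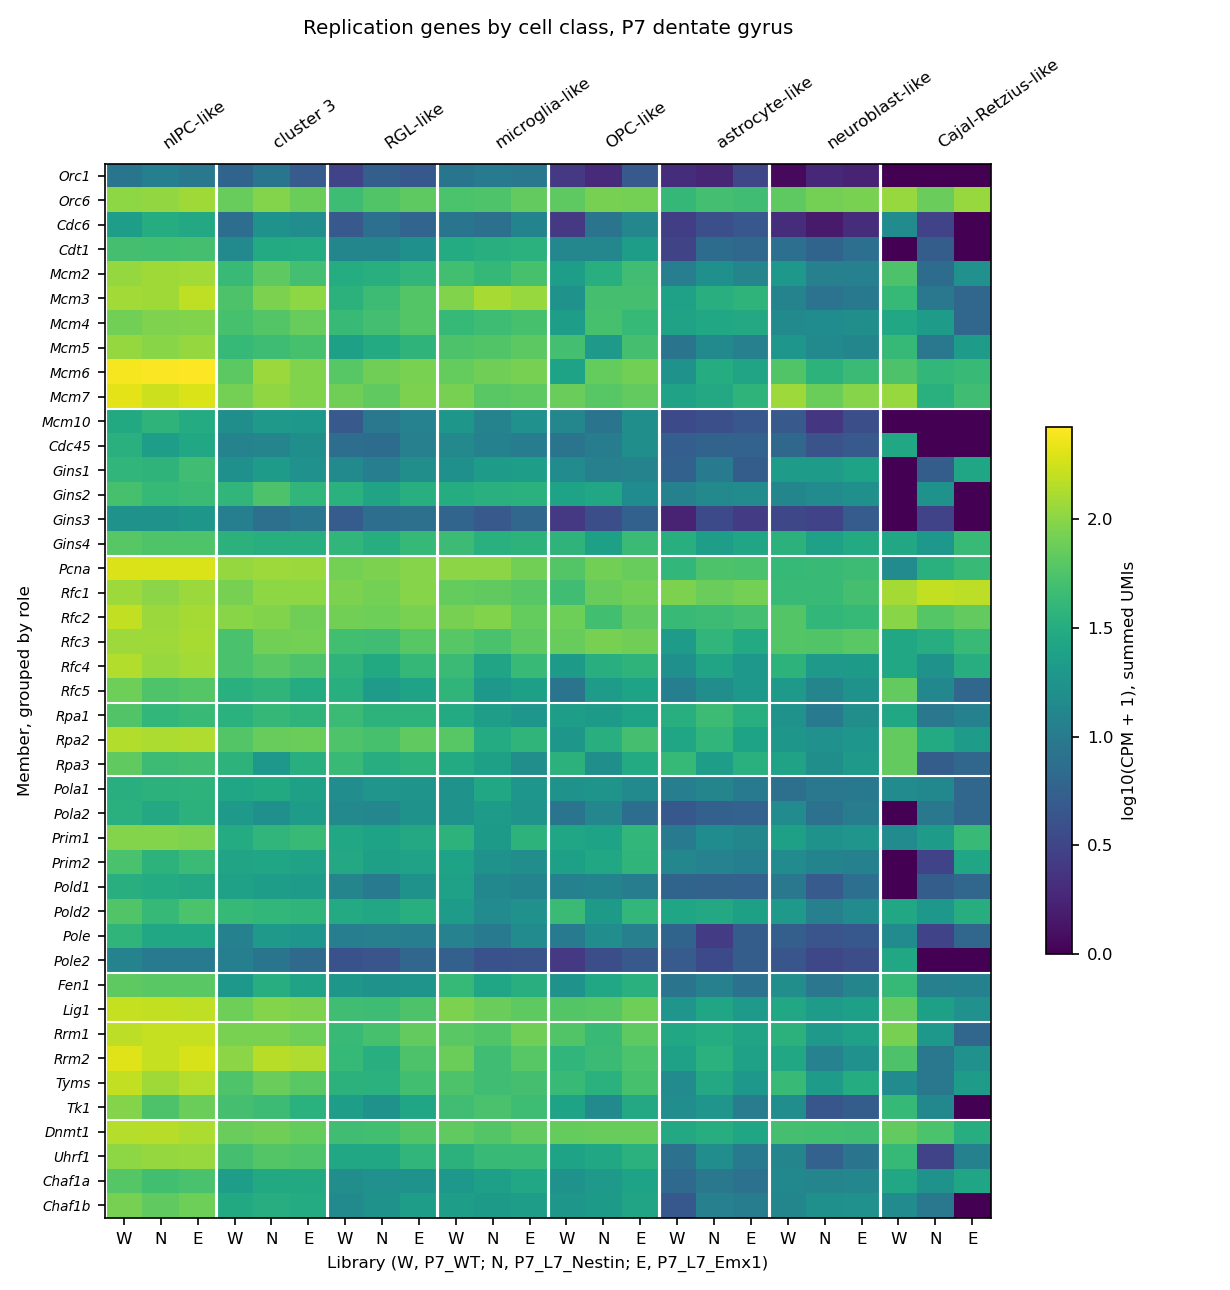
Level of each of the 43 members (lines of the grid, grouped by role) in 8 cell groups of the P7 dentate gyrus, as log10 of CPM plus 1, with 1 column per library (W, P7_WT; N, P7_L7_Nestin; E, P7_L7_Emx1). The nIPC-like columns at the left are brightest in all 3 libraries, at 39.2, 35.4 and 38.0 member UMIs per 10000, and the neuroblast-like columns lie among the darkest, at 10.4, 7.87 and 9.08.

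The licensing genes, which load the helicase onto origins, summed to 10.6, 10.5 and 11.4 UMIs per 10000 in nIPC-like cells. They summed to 3.34, 3.80 and 4.56 in RGL-like, 4.86, 5.15 and 5.496 in microglia-like and 3.09, 2.44 and 2.79 in neuroblast-like cells. Microglia-like cells thus held more licensing UMIs than RGL-like cells in each library. Mcm6, a subunit of the hexameric helicase, stood at 247, 256 and 264 CPM in nIPC-like cells. In RGL-like cells Mcm6 was at 61.9, 78.1 and 85.8, in microglia-like cells at 70.3, 77.6 and 83.9 and in neuroblast-like cells at 57.0, 36.0 and 44.0 CPM. Its RGL-like and microglia-like values were lowest in P7_WT and its neuroblast-like values highest there. Mcm3, another subunit, was at 121, 118 and 153 CPM in nIPC-like, 34.8, 44.9 and 58.8 in RGL-like and 11.2, 7.37 and 8.57 in neuroblast-like cells. In microglia-like cells Mcm3 reached 90.3, 127 and 110.1 CPM, as high as in nIPC-like cells in P7_L7_Nestin, where their intervals overlapped (110.4 to 146 and 108 to 128). Mcm2 stood at 108, 119 and 120.3 CPM in nIPC-like, 30.6, 32.5 and 38.7 in RGL-like, 47.7, 39.7 and 51.4 in microglia-like and 18.7, 10.4 and 10.3 in neuroblast-like cells. Mcm4, Mcm5 and Mcm7 complete the ring.

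Among the loaders of that helicase, Cdc6 and Orc1 are described because their ratios of nIPC-like to neuroblast-like level were among the 3 largest of the members, and Orc6 because its ratio was the smallest. Cdc6, an ATPase that joins the origin complex, was at 21.9, 30.8 and 27.9 CPM in nIPC-like and 3.79, 6.70 and 5.13 in RGL-like cells, but in neuroblast-like cells at 1.09, 0.498 and 1.08 CPM from 7, 5 and 10 UMIs. Orc1, the largest subunit of the origin complex, was at 7.74, 10.1 and 8.42 CPM in nIPC-like cells and in neuroblast-like cells rested on 1, 9 and 7 UMIs. Both genes thus rested on few UMIs in neuroblast-like cells and on 30 or more in nIPC-like cells. Cdt1, which brings the helicase to the origin, stood at 49.8, 48.0 and 49.7 CPM in nIPC-like, 30.3, 32.3 and 34.6 in microglia-like, 12.0, 11.9 and 15.6 in RGL-like and 6.69, 4.98 and 6.72 in neuroblast-like cells. Orc6, a small subunit of the origin complex, differed from these. It was at 103, 106 and 119 CPM in nIPC-like, 45.4, 56.7 and 65.0 in RGL-like and 65.7, 82.3 and 84.7 in neuroblast-like cells, and so was higher in neuroblast-like than in RGL-like cells in each library.

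Genes that activate the helicase are Mcm10, Cdc45 and the 4 GINS subunits Gins1, Gins2, Gins3 and Gins4. They summed to 2.31, 2.09 and 2.22 UMIs per 10000 in nIPC-like, 1.00, 0.871 and 1.16 in RGL-like, 1.28, 1.13 and 1.23 in microglia-like and 0.795, 0.648 and 0.796 in neuroblast-like cells. Gins4 was at 61.4, 56.3 and 55.9 CPM in nIPC-like, 38.5, 31.5 and 40.6 in RGL-like and 35.5, 23.5 and 29.3 in neuroblast-like cells. Gins1 was at 38.7, 36.7 and 46.5 CPM in nIPC-like, 13.1, 9.80 and 14.8 in RGL-like and 20.4, 20.8 and 24.3 in neuroblast-like cells. Gins1, like Orc6, was thus higher in neuroblast-like than in RGL-like cells in each library.

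The clamp, its loader and the single-strand binding proteins travel with the fork. Pcna, the ring that tethers polymerases, was at 199, 194 and 191 CPM in nIPC-like, 99.4, 98.7 and 79.7 in microglia-like, 82.2, 87.9 and 94.7 in RGL-like and 40.9, 42.3 and 44.9 in neuroblast-like cells. Its neuroblast-like values were lowest in P7_WT, where those of Mcm6 were highest. With the loader subunits Rfc1, Rfc2, Rfc3, Rfc4 and Rfc5, the group summed to 8.03, 6.87 and 7.36 UMIs per 10000 in nIPC-like and 2.57, 2.13 and 2.35 in neuroblast-like cells. Rpa2, a subunit of replication protein A with Rpa1 and Rpa3, was at 138, 132 and 136 CPM in nIPC-like, 56.4, 51.8 and 66.9 in RGL-like and 18.1, 15.7 and 17.8 in neuroblast-like cells. In microglia-like cells Rpa2 was at 61.3, 29.8 and 37.8 CPM, highest in P7_WT.

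Polymerase alpha and its primase (Pola1, Pola2, Prim1, Prim2) lay down primers that polymerases delta (Pold1, Pold2) and epsilon (Pole, Pole2) extend. Together they summed to 3.49, 2.99 and 3.21 UMIs per 10000 in nIPC-like, 1.37, 1.26 and 1.501 in RGL-like and 0.923, 0.635 and 0.729 in neuroblast-like cells. Prim1, the catalytic primase subunit, was at 92.4, 92.3 and 89.1 CPM in nIPC-like, 27.5, 24.2 and 28.2 in RGL-like and 23.0, 16.4 and 17.5 in neuroblast-like cells. Its 3 nIPC-like values lay within each other's counting intervals. Lig1, the ligase that seals the fragments after Fen1 has trimmed their flaps, was at 161, 159 and 153 CPM in nIPC-like, 87.7, 72.6 and 65.0 in microglia-like, 46.8, 46.1 and 55.0 in RGL-like and 26.9, 20.4 and 22.6 in neuroblast-like cells. Microglia-like cells held more Lig1 than RGL-like cells in P7_WT and P7_L7_Nestin. In P7_L7_Emx1 their intervals overlapped (49.9 to 83.4 and 48.4 to 62.1).

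Rrm2, the regulated subunit of ribonucleotide reductase with Rrm1, stood at 199, 161 and 187 CPM in nIPC-like and 75.5, 47.2 and 61.9 in microglia-like cells. In RGL-like cells Rrm2 was at 41.3, 32.5 and 55.4 and in neuroblast-like cells at 27.1, 10.8 and 15.7 CPM, and P7_L7_Nestin was lowest of the 3 libraries in each of these 4 classes. Nucleotide genes, which also include the thymidine suppliers Tyms and Tk1, summed to 6.00, 4.97 and 5.64 UMIs per 10000 in nIPC-like and 1.19, 0.540 and 0.739 in neuroblast-like cells. Dnmt1, which copies DNA methylation onto the new strand, was at 142, 145 and 134 CPM in nIPC-like, 47.1, 47.7 and 57.3 in RGL-like and 49.8, 48.4 and 47.0 in neuroblast-like cells. Uhrf1, which brings DNMT1 to the fork, was at 101, 108 and 110.4 CPM in nIPC-like, 26.8, 27.1 and 38.3 in RGL-like and 11.7, 4.78 and 7.48 in neuroblast-like cells. Uhrf1 thus set neuroblast-like below RGL-like cells in each library, while Dnmt1 stood near equal in these classes in P7_WT and P7_L7_Nestin. Chaf1a and Chaf1b, subunits of the histone chaperone CAF-1, complete the chromatin group, which summed to 3.87, 3.68 and 3.73 UMIs per 10000 in nIPC-like cells.

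Set against neuroblast-like cells of the same library, nIPC-like cells held nearly the whole machinery at a higher level. With no limit on counts, 43 of the 43 members in P7_WT, 42 in P7_L7_Nestin and 42 in P7_L7_Emx1 were at least 1.5-fold higher. The shares among all genes with at least 100 UMIs over both classes were 16.5%, 17.7% and 17.1%. Cdc6 had ratios of 20.1, 61.8 and 25.8-fold, Mcm3 of 10.8, 15.96 and 17.9-fold and Orc1 of 49.7, 11.3 and 11.1-fold, the last with a P7_WT interval of 3.05 to 10.99 on the log2 scale because it rests on 1 neuroblast-like UMI. Orc1 in each library and Cdc6 in P7_WT held under 100 UMIs over both classes. At the other end, Orc6 had ratios of 1.56, 1.28 and 1.40-fold, Gins4 of 1.73, 2.40 and 1.91-fold and Gins1 of 1.90, 1.77 and 1.91-fold. Orc6 was the member below 1.5-fold in both mutant libraries. RGL-like cells stood below nIPC-like cells for all 43 members in each of the 3 libraries, beside 48.4%, 48.1% and 47.2% of all genes with at least 100 UMIs over both classes. That gap was narrow for Rpa1, at 0.756, 0.919 and 0.840 times the nIPC-like level, and wide for Mcm10, at 0.131, 0.226 and 0.365 times (both chosen after their values were seen). The clusters were drawn on other genes of the same cells, so these ratios are descriptions.

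Between the nIPC-like clusters, cluster 12 held more member UMIs per 10000 (41.8, 44.6 and 45.2) than cluster 1 (36.1, 28.8 and 32.5) in each library. Cdc6 stood 2.12, 1.98 and 1.68 times and Orc1 3.34, 2.41 and 3.94 times as high in cluster 12. Tyms, chosen after its values were seen, stood 0.663, 1.16 and 1.21 times as high, below 1 in P7_WT and above it in the mutant libraries. Cluster 1 in turn held more UMIs of the 54 G2/M genes (158, 138 and 142 per 10000 against 127, 129.9 and 137). Between the RGL-like clusters, cluster 20 (16.6, 20.7 and 22.1) was above cluster 16 (13.2, 12.2 and 14.6), and its cells had the highest median of all 25 clusters, at 7090 UMIs. The part of doublets in cluster 20 was not tested apart from the removal of high doublet scores given below for RGL-like cells.

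Counted cell by cell, members were seen together in many nIPC-like cells. After each cell was thinned to 1500 UMIs, the share of nIPC-like cells with UMIs of at least 5 different members was 47.1%, 39.7% and 45.2% of 817, 863 and 1031 cells, with 162, 30 and 33 shallower cells left out. Unthinned, it was 66.1%, 66.6% and 73.1%. In cluster 12 alone the thinned share was 52.9%, 56.2% and 59.9% and in cluster 1 39.9%, 28.7% and 35.1%, so P7_WT was lowest in cluster 12 and highest in cluster 1. RGL-like cells were at 8.48%, 8.50% and 11.5% (22.3%, 25.1% and 31.9% unthinned, 65, 27 and 39 left out) and neuroblast-like cells at 2.70%, 0.759% and 1.40% (13.98%, 11.5% and 16.2% unthinned, 235, 218 and 161 left out). Microglia-like cells were at 19.1%, 11.5% and 13.5% (24.8%, 33.6% and 38.7% unthinned), but 272, 57 and 13 of them were too shallow to enter. OPC-like cells were at 8.95%, 9.06% and 10.7% (21.1%, 22.8% and 24.9% unthinned, 33, 40 and 25 left out) and astrocyte-like cells at 1.64%, 6.20% and 4.14% (11.0%, 18.5% and 20.1% unthinned, 62, 139 and 101 left out). In the larger astrocyte-like cluster 5 alone the thinned share was 1.02%, 0.957% and 2.19%. The shallow astrocyte-like cluster 4 was at 21.1%, 39.4% and 23.2% of 19, 66 and 56 cells. In Cajal-Retzius-like cells, which should lack S phase, the thinned share was 0%, 2.67% and 0% of 13, 75 and 27 cells and the unthinned share 5.66%, 29.5% and 48.1%, at medians of 965, 5698 and 6949 UMIs against 3873, 4441 and 4485 in nIPC-like cells. A 0 of 13 and a 0 of 27 cells leave upper 95% limits of 24.7% and 12.8%, and 2 of 75 cells one of 9.30%. These limits are wide and cover counting error over the cells of 1 library only, and in P7_WT just 13 of 53 Cajal-Retzius-like cells were deep enough to enter, so the other classes were not judged against them.

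In nIPC-like cells the members together stood slightly below P7_WT in both mutant libraries. The summed log2 ratio was -0.15 (-0.18 to -0.11) in P7_L7_Nestin and -0.05 (-0.08 to -0.02) in P7_L7_Emx1. Of 41 members with enough UMIs, 0 were at least 1.5-fold higher in either mutant library, against 8.77% and 5.6% of all genes. In P7_L7_Nestin 2 were at least 1.5-fold lower and in P7_L7_Emx1 0, against 3.88% and 1.82% of all genes. The 2 were Tk1, which salvages thymidine, and Cdc45, both chosen after their values were seen. Tk1 stood at 92.4, 55.1 and 74.8 CPM, with log2 ratios of -0.75 (-0.99 to -0.51) and -0.30 (-0.52 to -0.09). Cdc45 stood at 33.8, 22.0 and 27.4 CPM, with log2 ratios of -0.62 (-1.01 to -0.23) and -0.31 (-0.66 to 0.05). Cdc6 lay on the other side of 0, with log2 ratios of 0.49 (0.09 to 0.90) and 0.35 (-0.05 to 0.75), and Mcm3 did so in P7_L7_Emx1 only, at -0.04 (-0.23 to 0.14) and 0.34 (0.17 to 0.51). The median over these members was -0.13 in P7_L7_Nestin and -0.06 in P7_L7_Emx1, beside 0.05 and 0.07 over all genes.

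The sign of the summed nIPC-like ratio depended on which cluster was read. In cluster 1 the ratios were -0.33 (-0.37 to -0.28) and -0.15 (-0.20 to -0.11), and in cluster 12 0.09 (0.05 to 0.14) and 0.11 (0.07 to 0.15). It also depended on how classes were drawn: with members and cell cycle genes kept among the genes that cluster the cells, both ratios became positive, at 0.06 in P7_L7_Nestin and 0.07 in P7_L7_Emx1. In P7_L7_Emx1 the ratio also turned positive without scaling within libraries (0.10) and among cells with at least 1000 genes (0.03). The number of members on the higher side depended on the scale: 11 and 15 of the 43 were higher than P7_WT by summed UMIs, but 22 and 30 by the difference of mean log-normalized values per cell. By summed UMIs 4413 of 7967 and 4840 of 8235 genes with enough UMIs were higher. The share over all genes was not computed on the log-normalized scale, so 22 and 30 are not read as a result about the members.

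In RGL-like cells the members were level in P7_L7_Nestin and higher in P7_L7_Emx1. The summed log2 ratios were -0.03 (-0.09 to 0.03) and 0.26 (0.21 to 0.32). Of 32 members with enough UMIs in P7_L7_Nestin, 0 were at least 1.5-fold higher and 1 lower, beside 6.55% and 2.61% of all genes. Of 36 in P7_L7_Emx1, 4 were at least 1.5-fold higher and 0 lower, beside 4.75% and 1.51% of all genes. The 4 were Mcm3, Mcm5, Rrm1 and Chaf1b, and the 1 was Rfc5; of these, Mcm5, Rrm1, Chaf1b and Rfc5 were chosen after their values were seen. In P7_L7_Emx1 Mcm5 stood at a log2 ratio of 0.67 (0.26 to 1.10), Rrm1 at 0.67 (0.37 to 0.98) and Chaf1b at 0.69 (0.14 to 1.26), and in P7_L7_Nestin Rfc5 stood at -0.65 (-1.09 to -0.20). Mcm3 had log2 ratios of 0.37 (0.01 to 0.74) and 0.76 (0.42 to 1.10), Mcm6 of 0.33 (0.06 to 0.61) and 0.47 (0.21 to 0.73), and Orc6 of 0.32 (0.00 to 0.64) and 0.52 (0.22 to 0.82). Rrm2 differed in sign between the libraries, at -0.35 (-0.72 to 0.03) and 0.42 (0.11 to 0.75). Of all genes with enough UMIs, 4376 of 7964 and 4848 of 8350 were higher. With no limit on UMIs, 19 and 36 of the 43 members were higher and 24 and 7 lower. Mcm10, chosen after its values were seen, then had the largest ratios, at 1.12 (0.10 to 2.26) and 1.53 (0.57 to 2.62). These rested on 11, 32 and 51 UMIs. Single-strand binding Rpa3, named after its values were seen, was lower in P7_L7_Nestin, at -0.48 (-0.85 to -0.10). In P7_L7_Emx1 it stood at -0.29 (-0.63 to 0.06), an interval that included 0. The RGL-like clusters differed: the summed ratios were -0.12 (-0.19 to -0.05) and 0.14 (0.08 to 0.21) in cluster 16, which held most RGL-like cells in each library, and 0.32 (0.20 to 0.44) and 0.41 (0.31 to 0.52) in cluster 20. Under 6 other ways of clustering, filtering or thinning the cells, the summed P7_L7_Emx1 ratio of RGL-like cells was between 0.05 and 0.19, lowest with members kept in the clustering. With the highest doublet scores removed the ratios were -0.19 in P7_L7_Nestin and 0.08 in P7_L7_Emx1, and without scaling within libraries -0.13 and 0.11.

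Neuroblast-like cells held fewer member UMIs in both mutant libraries than in P7_WT. The summed members had log2 ratios of -0.40 (-0.45 to -0.36) and -0.20 (-0.24 to -0.15). Of 34 members in P7_L7_Nestin, 0 were at least 1.5-fold higher and 18 lower, beside 11.5% and 9.07% of all genes. Of 36 in P7_L7_Emx1, 0 were higher and 5 lower, beside 7.65% and 3.75%. The 18 ranged from Rfc2, a clamp loader subunit, at -0.59 (-0.80 to -0.38) to Tk1. The 5 were Mcm2, Rfc4, Rrm2, Tk1 and Uhrf1, of which Rfc4 and Tk1, like Rfc2, were chosen after their values were seen. Rfc4 had log2 ratios of -0.93 (-1.21 to -0.64) and -0.85 (-1.14 to -0.56). Tk1 stood at 14.3, 3.48 and 4.23 CPM, with log2 ratios of -2.04 (-2.64 to -1.46) and -1.76 (-2.34 to -1.20). Rrm2 had ratios of -1.32 (-1.68 to -0.97) and -0.78 (-1.11 to -0.46), Uhrf1 of -1.29 (-1.84 to -0.75) and -0.64 (-1.13 to -0.15), and Mcm2 of -0.85 (-1.24 to -0.46) and -0.86 (-1.26 to -0.46). Against these, Pcna stood at 0.05 (-0.18 to 0.27) and 0.13 (-0.09 to 0.36), Dnmt1 at -0.04 (-0.25 to 0.17) and -0.08 (-0.30 to 0.13), and Orc6 at 0.33 (0.15 to 0.50) and 0.37 (0.19 to 0.54). The class also differed in make-up: cluster 2 gave 537 of 2010 of its cells in P7_WT, 550 of 2854 in P7_L7_Nestin and 521 of 2450 in P7_L7_Emx1. In cluster 2, at 14.9, 8.80 and 10.7 member UMIs per 10000, the summed ratios were -0.76 (-0.84 to -0.67) and -0.48 (-0.56 to -0.40). In cluster 13 they were -0.23 (-0.32 to -0.13) and -0.06 (-0.16 to 0.03), and in cluster 14 -0.15 (-0.23 to -0.06) and 0.05 (-0.02 to 0.13). The G2/M genes were also lower, at -0.61 (-0.63 to -0.59) and -0.54 (-0.56 to -0.52), and the part of either cluster make-up or these genes in the result was not tested. Cajal-Retzius-like cells, which no longer divide, held fewer member UMIs too, with summed ratios of -0.95 (-1.25 to -0.64) and -0.74 (-1.09 to -0.39) from 115, 395 and 181 UMIs. The part of free RNA in the neuroblast-like P7_WT values was not tested.

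In microglia-like cells the members together were slightly below P7_WT in P7_L7_Nestin, and in P7_L7_Emx1 the interval of the ratio reached 0. The summed log2 ratios were -0.14 (-0.22 to -0.06) and -0.07 (-0.16 to 0.02). With cells thinned to 1500 UMIs they were -0.26 and -0.15. Of 23 members in P7_L7_Nestin, 0 were at least 1.5-fold higher and 4 lower, beside 6.43% and 10.3% of all genes. Of 20 in P7_L7_Emx1, 0 were higher and 1 lower, beside 4.25% and 7.08%. The 4 were Rfc4, Rpa2, Fen1 and Rrm2 and the 1 was Rpa2; Rfc4 and Fen1 were chosen after their values were seen and stood at -0.82 (-1.42 to -0.24) and -0.68 (-1.28 to -0.09) in P7_L7_Nestin. Rpa2 had log2 ratios of -1.04 (-1.57 to -0.53) and -0.70 (-1.29 to -0.13). Mcm3 stood at 0.49 (0.18 to 0.81) and 0.29 (-0.09 to 0.66) and Rrm2 at -0.68 (-1.11 to -0.25) and -0.29 (-0.76 to 0.18). In glial classes of the neural lineage the sums were higher in both mutant libraries, at 0.29 (0.20 to 0.37) and 0.15 (0.07 to 0.24) in astrocyte-like and 0.13 (0.01 to 0.26) and 0.40 (0.28 to 0.53) in OPC-like cells. In the unnamed cluster 3 they stood at 0.27 (0.20 to 0.34) and 0.19 (0.12 to 0.26). Mcm6 was at 16.7, 31.0 and 25.2 CPM in astrocyte-like cells, 24.3, 70.4 and 79.6 in OPC-like cells and 63.8, 114 and 90.8 in cluster 3, lowest in P7_WT in all 3 groups. In the larger astrocyte-like cluster 5 alone the ratios were -0.07 (-0.17 to 0.03) and 0.07 (-0.02 to 0.16); the shallow astrocyte-like cluster 4 gave 55, 182 and 142 cells at 19.8, 27.3 and 20.3 per 10000.

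Other genes of the pathway, from lists that hold no member, were read in the same cells. In nIPC-like cells the summed log2 ratios of 50 other replication genes were -0.08 (-0.10 to -0.05) and 0.00 (-0.03 to 0.03), those of 28 E2F and Rb regulators 0.05 (0.02 to 0.08) and 0.06 (0.03 to 0.09), and those of the 54 G2/M genes -0.07 (-0.09 to -0.05) and -0.01 (-0.03 to 0.00). In RGL-like cells the other replication genes were at -0.04 (-0.09 to 0.00) and 0.12 (0.08 to 0.16), the regulators at 0.21 (0.16 to 0.26) and 0.20 (0.16 to 0.25), and the G2/M genes at -0.17 (-0.20 to -0.14) and 0.06 (0.03 to 0.09). The summed regulators thus stood above P7_WT in both classes and both mutant libraries, but the nIPC-like clusters differed. The regulators held 38.0, 36.3 and 37.3 UMIs per 10000 in cluster 1 and 46.3, 54.4 and 53.2 in cluster 12. The summed G2/M genes stood above P7_WT in P7_L7_Emx1 RGL-like cells. Of 48 with enough UMIs there, 20 were higher and 28 lower, with a median of -0.03, beside 4848 of all 8350 genes higher. In the larger RGL-like cluster 16 the G2/M genes held 47.6, 39.4 and 47.9 per 10000. The difference between these lists was not tested.

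In differentiating neurospheres 42 of 43 members had higher fitted levels in the knockout than in WT, beside 50.8% of all genes, with a median log2 fold change of 0.49 against 0.01 over all 17753 genes tested. In edgeR's quasi-likelihood test 0 passed an adjusted p of 0.05 in either direction, and the smallest adjusted p was 0.145, for Prim1. Over all genes 0.0169% passed as higher and 0.0169% as lower: Larp7, H2-Ke6 and Scd4 fell and Gm38733, Rlbp1 and Moxd1 rose. These counts of 3 and 3 became 1 and 0 without knockout replicate 1, 0 and 0 without knockout replicate 3, and 1050 and 855 without WT replicate 1. At an unadjusted p of 0.05, 24 members were higher and 0 lower, beside 10.4% and 11.2% of all genes. In 38 members each knockout library lay above both WT libraries, beside 21.3% of all genes. DESeq2 called 12 members higher and 0 lower, beside 4.95% and 5.87% of the genes it gave an adjusted p. In bulk RNA, fewer cells of a type and less RNA per cell cannot be told apart.

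The size of this difference varied with the WT library. WT replicate 2 lay below WT replicate 1 for 43 of 43 members, by a median log2 difference of -0.71, beside 51% of all genes and a median of -0.00211. In contrast, the knockout libraries exceeded WT replicate 1 by medians of 0.26, 0.13 and 0.15. Summed member levels were 3661 and 2222 CPM in WT and 4415, 4076 and 4088 CPM in the knockout. Without WT replicate 2 the median log2 fold change was 0.20, with 39 of 43 members above 0 and 0 called. Without WT replicate 1 it was 0.87, with 39 members called higher and 0 lower, beside 5.61% and 4.57% of all genes. The spread between the WT libraries was thus larger than the distance from WT replicate 1 to the knockout. Leaving out knockout replicate 1, 2 or 3 gave 0 called members. Where 1 WT library is left, it is assumed to vary like the knockout libraries.

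**Figure D2:**
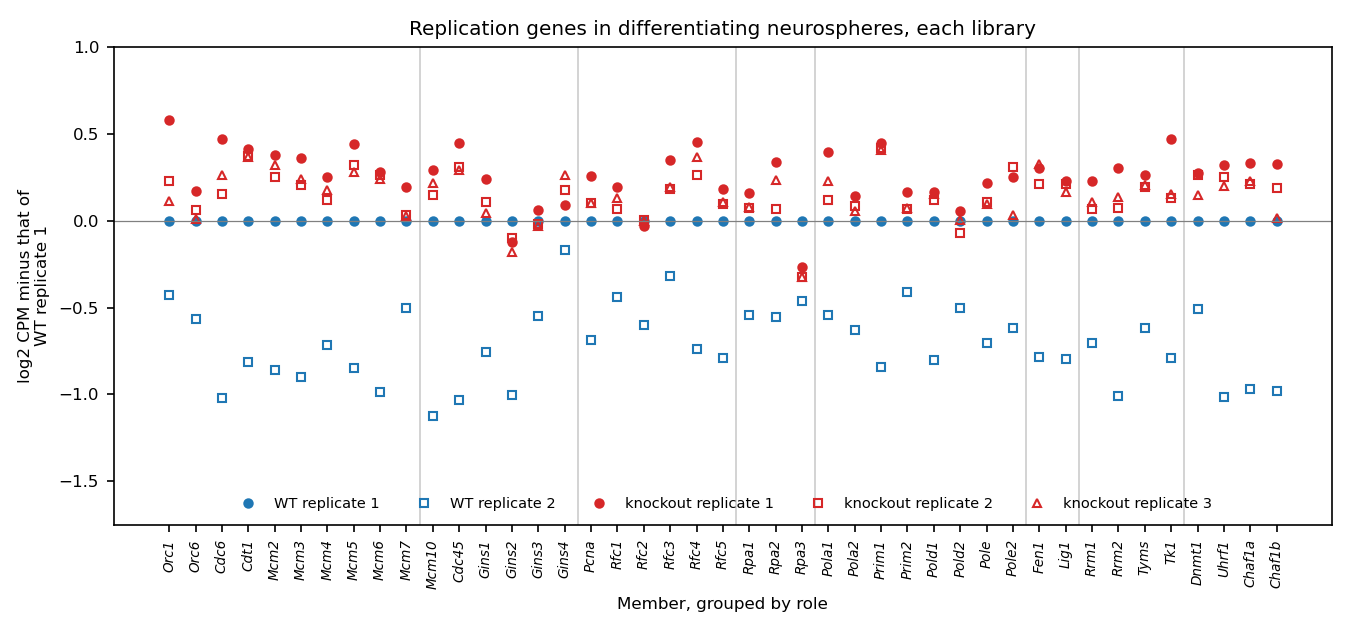
log2 CPM of each member in each neurosphere library, minus that of WT replicate 1 (filled blue circles at 0), in the order of the roles; open blue squares are WT replicate 2 and red symbols the knockout replicates. WT replicate 2 lies below 0 for 43 of 43 members, and the knockout libraries lie above it, with medians of 0.26, 0.13 and 0.15 relative to WT replicate 1.

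Licensing genes had a median log2 fold change of 0.66 in neurospheres, the highest of the 8 roles. Mcm2 stood at 167 and 92.4 CPM in the WT libraries and 217, 199 and 209 in the knockout libraries, a log2 fold change of 0.68 (SE 0.23, adjusted p = 0.170). Mcm6 stood at 172 and 87.1 CPM in the WT libraries and 209, 207 and 204 in the knockout libraries, a log2 fold change of 0.67 (SE 0.26, adjusted p = 0.204). Mcm3 stood at 132 and 70.7 CPM in the WT libraries and 169, 152 and 156 in the knockout libraries, a log2 fold change of 0.65 (SE 0.24, adjusted p = 0.194). For these 3 helicase subunits WT replicate 2 was low, WT replicate 1 intermediate and the knockout libraries high, with no overlap. Mcm5, Mcm4 and Mcm7 had log2 fold changes of 0.71, 0.50 and 0.32. Cdc6 stood at 25.4 and 12.5 CPM in the WT libraries and 35.2, 28.2 and 30.5 in the knockout libraries, a log2 fold change of 0.72 (SE 0.29, adjusted p = 0.214). Cdt1 stood at 27.6 and 15.7 CPM in the WT libraries and 36.7, 35.7 and 35.5 in the knockout libraries, a log2 fold change of 0.73 (SE 0.22, adjusted p = 0.152). Both loading factors repeated the order seen for the helicase. Orc1, at the lowest counts of the role, had 5.99 and 4.46 CPM in the WT libraries and 8.97, 7.01 and 6.49 in the knockout libraries, a log2 fold change of 0.52 (SE 0.21, adjusted p = 0.228). Orc6 had 38.8 and 26.2 CPM in the WT libraries and 43.7, 40.5 and 39.0 in the knockout libraries, a log2 fold change of 0.34 (SE 0.17, adjusted p = 0.302). Orc6 in WT replicate 1 lay just under knockout replicate 3, so that the groups nearly met.

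Fork components had smaller median differences: 0.37 for helicase activation, 0.43 for the clamp and its loader, 0.35 for single-strand binding and 0.46 for polymerases and primase. Gins1 had 13.3 and 7.90 CPM in the WT libraries and 15.7, 14.3 and 13.7 in the knockout libraries, a log2 fold change of 0.46 (SE 0.22, adjusted p = 0.288). Gins4 had 22.2 and 19.7 CPM in the WT libraries and 23.6, 25.1 and 26.7 in the knockout libraries, a log2 fold change of 0.26 (SE 0.11, adjusted p = 0.223), and its WT libraries were close to each other. Pcna had 236 and 146 CPM in the WT libraries and 281, 253 and 253 in the knockout libraries, a log2 fold change of 0.46 (SE 0.19, adjusted p = 0.225). Pcna was separated between the groups, but by less than the distance between its WT libraries. Rpa2 had 48.1 and 32.8 CPM in the WT libraries and 60.9, 50.4 and 56.6 in the knockout libraries, a log2 fold change of 0.47 (SE 0.17, adjusted p = 0.197). Prim1 had 30.5 and 17.0 CPM in the WT libraries and 41.7, 40.7 and 40.4 in the knockout libraries, a log2 fold change of 0.78 (SE 0.23, adjusted p = 0.145), and its knockout libraries were close together and above both WT libraries. Rpa3, the exception in direction and named for that after its values were seen, had 18.02 and 13.1 CPM in the WT libraries and 14.9, 14.4 and 14.4 in the knockout libraries, a log2 fold change of -0.09 (SE 0.15, adjusted p = 0.757). Its knockout libraries lay between the WT libraries. The remaining fork genes ranged from 0.23 (Pold2) to 0.78 (Cdc45).

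The maturation, nucleotide and chromatin roles had medians of 0.58, 0.55 and 0.63. Lig1 had 104 and 60.1 CPM in the WT libraries and 123, 121 and 117 in the knockout libraries, a log2 fold change of 0.55 (SE 0.21, adjusted p = 0.207). Rrm2 had 235 and 117 CPM in the WT libraries and 291, 248 and 258 in the knockout libraries, a log2 fold change of 0.59 (SE 0.27, adjusted p = 0.259). In Rrm2 the gap between the WT libraries, a log2 difference of -1.01, exceeded that between the groups. Dnmt1 had 316 and 222 CPM in the WT libraries and 382, 379 and 349.7 in the knockout libraries, a log2 fold change of 0.46 (SE 0.15, adjusted p = 0.157). Uhrf1 had 183 and 90.7 CPM in the WT libraries and 229, 218 and 210.5 in the knockout libraries, a log2 fold change of 0.68 (SE 0.27, adjusted p = 0.212). For all 4 genes every knockout library was above both WT libraries. Tk1, Tyms and Rrm1 had log2 fold changes of 0.60, 0.50 and 0.45, Fen1 of 0.62, and the CAF-1 subunits Chaf1a and Chaf1b of 0.66 and 0.59.

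Most genes of other cell cycle lists had higher fitted levels in the knockout cultures, beside 50.8% of all genes, and most astrocyte markers had lower ones. The 50 other replication genes had a median log2 fold change of 0.30, with 43 higher, and the 28 E2F and Rb regulators 0.29, with 23 higher. The regulator list pools drivers of the cell cycle with inhibitors such as Cdkn1a and Rb1. Its log2 fold changes ran from -0.23 to 3.24. The G2/M genes were higher in 54 of 54, with a median of 0.68, and WT replicate 2 lay below WT replicate 1 in 54 of 54. Relative to WT replicate 1 alone, their medians in the knockout libraries were 0.32, 0.27 and 0.25. Of these lists 0 genes passed the adjusted p in edgeR's test. At an unadjusted p of 0.05 in that test, 19, 11 and 39 of the 3 lists, in this order, were higher and 1, 1 and 0 lower. The shares over all genes were 10.4% and 11.2%. DESeq2 called 9, 9 and 22 higher and 1, 0 and 0 lower, beside 4.95% and 5.87% of the genes it gave an adjusted p. Of the astrocyte markers 10 of 11 had lower fitted levels in the knockout, with a median of -0.68. Among these 11, 0 passed in edgeR's test, with a smallest adjusted p of 0.0972, while 9 were lower at an unadjusted p of 0.05 and DESeq2 called 7 lower. Their summed levels were 2293 and 3442 CPM in WT and 1914, 1448 and 1841 CPM in the knockout. WT replicate 2, lowest in the members, was thus highest in this sum. Marker by marker, it lay below WT replicate 1 in 5 of the 11, with a median log2 difference of 0.08 over these markers. Apoe was the most abundant of them, at 538 and 1233 CPM in WT and 525, 283 and 439 CPM in the knockout, and all 11 passed the filter on low counts. Oligodendrocyte markers, with Cnp the most abundant, summed to 492 and 360 CPM in WT and 476, 573 and 705 CPM in the knockout, and 5 of 6 tested were higher, with 2 called by DESeq2. OPC markers summed to 6806 and 7484 CPM in WT and 7018, 7783 and 7361 CPM in the knockout, led by Olig1; 7 of 9 were higher, with log2 fold changes from -0.16 to 2.03 and 3 called by DESeq2. RGL markers summed to 1265 and 1283 CPM in WT and 1437, 1307 and 1260 CPM in the knockout, led by Nes, with log2 fold changes of the 10 tested from -0.62 to 0.64 and 1 called higher by DESeq2. The sums of both lists thus lay close together while single markers did not. In edgeR's test 0 markers of these 3 lists passed, and 3, 3 and 1 were higher at an unadjusted p of 0.05. nIPC markers summed to 122 and 152 CPM in WT and 166, 119 and 129 CPM in the knockout. Of 8 tested 5 were higher, with log2 fold changes from -1.50 to 1.65, 2 higher and 1 lower at an unadjusted p of 0.05 and 2 called higher by DESeq2. Neuroblast markers summed to 285 and 333 CPM in WT and 326, 324 and 324 CPM in the knockout. Of 7 tested 3 were higher, with a median of -0.17, log2 fold changes from -1.83 to 0.28, 1 higher and 1 lower at an unadjusted p of 0.05 and 1 called lower by DESeq2. In edgeR's test 0 of either list passed. Of 11 microglia markers only 2 passed the filter on low counts, and these summed to 20.0 and 25.4 CPM in WT and 22.9, 19.5 and 22.5 CPM in the knockout. The part of these markers in the members' differences was not tested.

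Gene by gene, culture and tissue did not give 1 common picture. The neurosphere knockout shares its Emx1-Cre genotype with the title of P7_L7_Emx1, and no control library is shared between culture and tissue. Across the 43 members, Spearman's rho between the neurosphere log2 fold change and the nIPC-like log2 ratio was 0.32 for P7_L7_Nestin and 0.25 for P7_L7_Emx1. With the RGL-like ratio it was 0.31 and 0.38. Members are not independent replicates and share libraries, so these are descriptions. In nIPC-like cells 11 members in P7_L7_Nestin and 15 in P7_L7_Emx1 were higher than P7_WT as well as higher in culture, while 31 and 27 were higher in culture and lower in tissue. In RGL-like cells 19 and 36 were higher in both, and 23 and 6 were higher in culture and lower in tissue. Since 42 of 43 members were higher in culture, these counts only restate how many members were higher in tissue, which was 11, 15, 19 and 36. Of all genes with enough UMIs, 4413 of 7967 and 4840 of 8235 were higher in nIPC-like cells. In RGL-like cells 4376 of 7964 and 4848 of 8350 were higher. Other classes were not set beside the culture in this way. Cdc6 was on the higher side in culture (0.72) and in the nIPC-like (0.49 and 0.35) and RGL-like (0.82 and 0.44) cells of both mutant libraries, though with 11 P7_WT UMIs in RGL-like cells. Prim1, at 0.78 in culture, stood at 0.00 and -0.05 in nIPC-like, -0.18 and 0.04 in RGL-like and -0.49 and -0.40 in neuroblast-like cells. Rrm2, at 0.59 in culture, stood at -0.31 and -0.10 in nIPC-like, -0.35 and 0.42 in RGL-like and -1.32 and -0.78 in neuroblast-like cells. Orc6, at 0.34 in culture, stood at 0.04 and 0.21 in nIPC-like, 0.32 and 0.52 in RGL-like and 0.33 and 0.37 in neuroblast-like cells. Orc6 thus stood above P7_WT in RGL-like and neuroblast-like cells and in nIPC-like cells of P7_L7_Emx1. In nIPC-like cells of P7_L7_Nestin it was within counting error of P7_WT. Rrm2 stood below P7_WT in neuroblast-like cells and in nIPC-like cells, where its P7_L7_Emx1 interval reached 0. In RGL-like cells it lay on either side. In cluster 3 Rrm2 stood above P7_WT, at 0.54 (0.24 to 0.84) and 0.47 (0.18 to 0.75). Prim1 was within counting error of P7_WT in nIPC-like and RGL-like cells and lower in neuroblast-like cells. In microglia-like cells Prim1 stood at -0.86 (-1.54 to -0.21) and -0.02 (-0.68 to 0.62), from 56, 32 and 34 UMIs. Rpa3 stood at -0.09 (SE 0.15) in culture, where its knockout libraries lay between the WT libraries. In tissue it was lower in nIPC-like cells, at -0.58 and -0.51. In RGL-like cells it stood at -0.48 and -0.29, the latter with an interval that included 0.

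**Figure D3:**
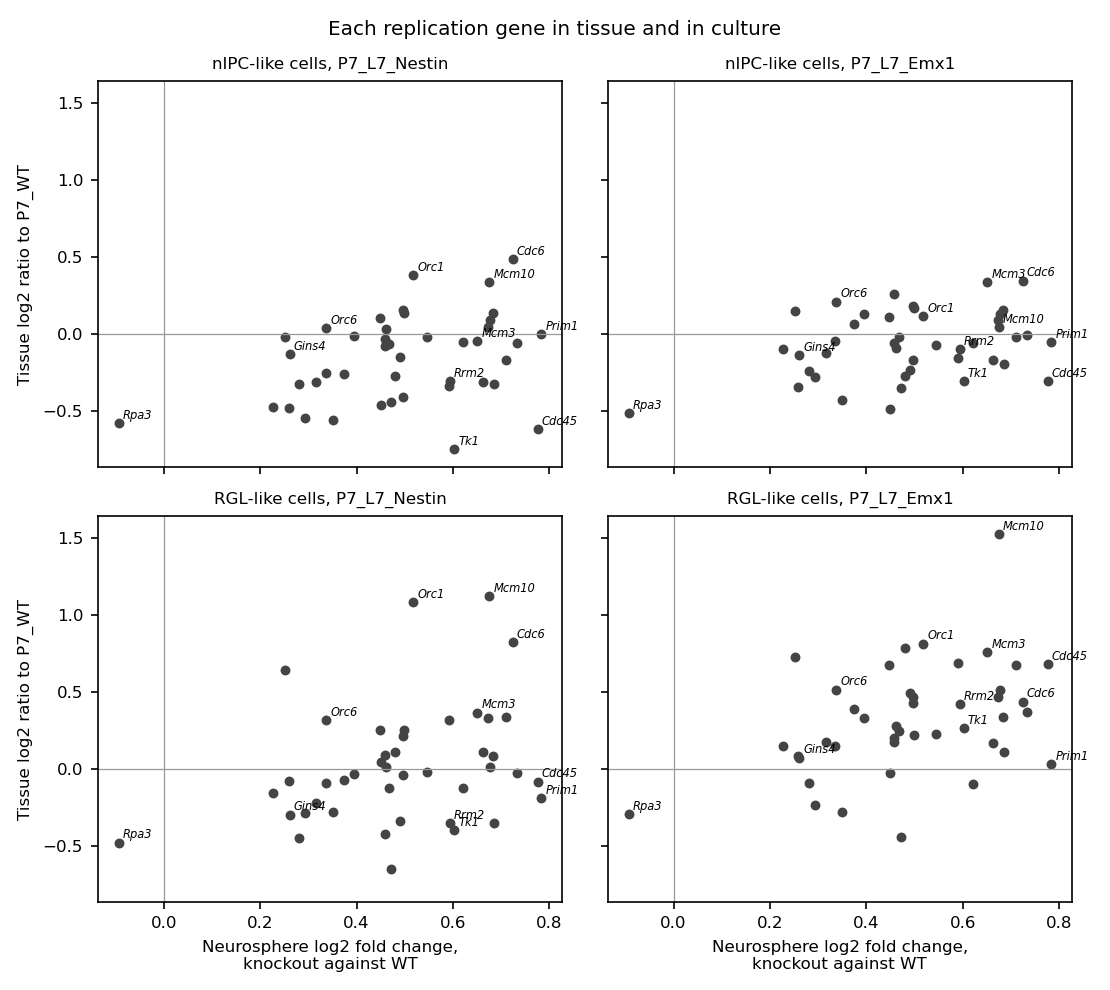
Each point is 1 of the 43 members. The x axis gives the neurosphere log2 fold change (knockout against WT) and the y axis the tissue log2 ratio to P7_WT. Upper panels show nIPC-like and lower panels RGL-like cells of each mutant library. The labelled genes are ones named in the text, of which Mcm10, Tk1, Rpa3 and Cdc45 were chosen after their values were seen. In the RGL-like panel of P7_L7_Emx1 36 members lie at the upper right, above 0 on both axes, and in the nIPC-like panel of P7_L7_Nestin 11 do.

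Because the members stood high together in nIPC-like cells, their promoters were read for shared letters. RefSeq promoters of build GRCm38.p6, from 250 bases before to 50 after the start, were found for 36 of 43 members; Mcm4, Gins1, Gins2, Gins4, Rfc2, Prim2 and Pole were not matched. The letters TTTCCCGC, TTTCGCGC, TTTGCCGC and TTTGGCGC, which are forms of the E2F consensus, were searched on both strands. At least 1 was found in 12 of 36 (33.3%), against 2.32% of 27025 promoters of the same length, and 2 or more in 5 (13.9%, against 0.0999%). Licensing genes held them in 7 of 9 promoters, polymerase and primase genes in 3 of 6, helicase activators in 1 of 3 and clamp genes in 1 of 5. Single-strand binding, Okazaki joining, nucleotide and chromatin genes held them in 0 of 3, 0 of 2, 0 of 4 and 0 of 4. Outside the members they were found in 24.4% of promoters of other replication genes, 42.1% of E2F and Rb regulators and 4.26% of G2/M genes. CCAAT on either strand was in 66.7% of the members, 46.3% of other replication genes, 36.8% of E2F and Rb regulators and 76.6% of G2/M genes, against 37.9% of all promoters. TATAAA was in 5.56% of the members and 14.2% of all promoters. TTTGAA or TTCGAA, forms of the cell cycle homology element, was in 19.4% of the members, 19.4% of all promoters and 74.5% of the G2/M genes. Median GC content was 58% in the members and 52.7% in all promoters. A match is a description of letters and not of a bound site, and a promoter without one says only that these letters are not in its window.

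The promoters of 3 licensing genes named above are printed 5′ to 3′ on the gene's strand, to show how densely such letters can lie, with E2F-type letters in capitals. Mcm6 (chr1:128359656-128359955, minus strand) holds 3 matches, from bases 141, 145 and 204, of which the first overlaps the next on the opposite strand. Mcm3 (chr1:20820263-20820562, minus strand) holds 2 and Orc1 (chr4:108579204-108579503, plus strand) 1.
Mcm6: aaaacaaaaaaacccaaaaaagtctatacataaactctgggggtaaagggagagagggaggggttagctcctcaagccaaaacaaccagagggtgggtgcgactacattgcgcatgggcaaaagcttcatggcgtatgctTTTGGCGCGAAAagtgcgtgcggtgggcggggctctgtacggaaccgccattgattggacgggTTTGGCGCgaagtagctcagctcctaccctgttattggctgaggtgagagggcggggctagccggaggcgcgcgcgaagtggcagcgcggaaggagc
Mcm3: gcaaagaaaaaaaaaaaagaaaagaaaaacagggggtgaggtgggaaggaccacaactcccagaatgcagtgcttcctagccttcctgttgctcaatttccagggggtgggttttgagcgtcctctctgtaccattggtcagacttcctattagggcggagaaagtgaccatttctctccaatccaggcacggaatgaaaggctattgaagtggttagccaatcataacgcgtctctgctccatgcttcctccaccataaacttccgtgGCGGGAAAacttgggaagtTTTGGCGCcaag
Orc1: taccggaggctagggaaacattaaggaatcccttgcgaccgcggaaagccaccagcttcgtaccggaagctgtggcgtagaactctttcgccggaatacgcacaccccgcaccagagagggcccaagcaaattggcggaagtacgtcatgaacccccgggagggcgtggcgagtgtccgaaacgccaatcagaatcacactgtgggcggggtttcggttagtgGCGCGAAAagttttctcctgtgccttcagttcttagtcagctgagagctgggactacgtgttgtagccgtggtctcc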

How the data were processed

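UMIs were counted with Cell Ranger by the authors, who deposited whole-number counts per gene and barcode, and reads of the neurospheres were deposited as raw counts per Entrez gene. The study's methods name Minimap2 for the latter, and the submitters' processing notes name featureCounts and mm10 without a role. Members and lists were chosen with earlier results of these data known.

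Cells with more than 500 genes and under 15% mitochondrial UMIs were kept (scanpy 1.11.5, Python 3.11.15). They were normalized to 10000 and clustered (Leiden, resolution 1, 15 neighbours) on 30 components of 2000 variable genes, scaled within libraries, after 448 genes had been left out: members, cell cycle genes and genes correlated with them above 0.25. A class name needed at least 3 markers raised 1.5-fold, in at least 10% of cells, with a mean log2 fold of 0.5; these limits were set with the data known. Kept barcodes shared with another library numbered 31 in P7_WT, 24 in P7_L7_Nestin and 23 in P7_L7_Emx1. Scrublet called 2, 272 and 407 doublets; with so few calls in P7_WT, its calls were not used, no cell was removed and removal of the 6% highest scores was tried as an alternative. UMIs were summed per library and class. Ratios were read among genes with at least 100 UMIs over the 2 libraries compared.

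Neurosphere counts were fitted over 17753 genes with edgeR 4.0.16 in R 4.3.3 (TMM, filterByExpr, quasi-likelihood, Benjamini-Hochberg adjustment), with a biological coefficient of variation of 19.4%. Chi-square per degree of freedom between libraries was 61.01 in WT and 38.15, 18.73 and 24.09 in the knockout, far above sampling noise, so each library counted once. Alternatives were DESeq2 1.42.0, library totals, no filter on low counts, the replicate number as a block, each library left out, and, for tissue, other clustering, scaling, depth and cell filters. By rule, full values were given for members past the adjusted p in neurospheres or at least 1.5-fold from P7_WT in the same direction in both mutant libraries in RGL-like or nIPC-like cells (0 members met either), the highest of each role in P7_WT nIPC-like cells, the 3 with the largest and the 3 with the smallest nIPC-like to neuroblast-like ratio, and 8 fixed by name. Of 10 columns of counts 5 matched no sample and were not used. ATAC and CUT&Tag libraries were not analysed here. RefSeq promoters (GRCm38.p6) served for motif search only.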

Additional observations from a re-analysis of the deposited data

Results flagged for a closer look

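In P7_L7_Emx1 the summed members stood above P7_WT in RGL-like cells and below it in nIPC-like cells, at log2 ratios of 0.26 and -0.05, a difference of 0.31. Each class comes from 1 library per genotype, and the difference was not tested. It was picked out among RGL-like, nIPC-like and microglia-like cells after the ratios of 6 classes had been seen. It depended on how the cells were grouped: with members kept in the clustering the RGL-like and nIPC-like ratios were nearly level at 0.0549 and 0.0724, and without scaling within libraries at 0.11 and 0.0989. Under 6 other ways of clustering, filtering or thinning the cells the RGL-like ratio was smaller than 0.26, between 0.05 and 0.19.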

How the results depend on the processing

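In neurospheres the members' median log2 fold change was between 0.20 and 0.87 under the alternatives tried, and the number of members called between 0 and 39. DESeq2 called 728 genes higher and 863 lower, with 12 members higher. Without a filter on low counts 1 gene was called higher and 2 lower. With the replicate block 0 genes were called higher and 0 lower. Same-numbered libraries deviated from their group means with correlations of -0.0053 and 0.093. With 2 WT libraries the WT deviations mirror each other, so these correlations cannot tell whether same-numbered cultures were paired. Leaving out 1 library gave 0 to 1050 genes higher, 0 to 855 lower and 0 to 39 members higher. In tissue the summed log2 ratios were as follows. With members and other cell cycle genes kept in the clustering, RGL-like cells of P7_L7_Emx1 were at 0.0549 and nIPC-like cells at 0.0617 in P7_L7_Nestin and 0.0724 in P7_L7_Emx1. Without scaling within libraries, RGL-like cells were at -0.13 and 0.11 and nIPC-like cells at -0.0533 and 0.0989. At resolution 2, RGL-like cells of P7_L7_Emx1 were at 0.19 and nIPC-like cells of P7_L7_Nestin at -0.19. With at least 1000 genes per cell, RGL-like cells of P7_L7_Emx1 were at 0.17 and nIPC-like cells at -0.0179 and 0.0255. With the highest doublet scores removed, RGL-like cells were at -0.1932 and 0.0786. With cells thinned to 1500 UMIs, RGL-like cells of P7_L7_Emx1 were at 0.14, nIPC-like cells at -0.1868 and -0.0780 and microglia-like cells of P7_L7_Nestin at -0.26. The cause was not tested. Of the summed tissue ratios and the neurosphere counts of called genes, 41 values stayed within their error or within 1.5 times the count and 31 moved by more. Of the values of single members, medians and counts of members, 472 stayed on their side of the threshold or within their error, 84 moved by more and 19 passed the threshold only under an alternative. With 1 library per genotype, tissue intervals cover counting error only, and 43.5% of P7_WT cells held under 1500 UMIs.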
